A study of Mus musculus with 36 samples.

Results

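The 10 genes described here are imprinted genes other than those of the insulin-like growth factor axis: Slc38a4, Nnat, Mest, Plagl1, Ndn, Peg3, Sgce, Dlk1, Meg3 and Rian. They were taken by name, as the probe sets that the platform annotation assigns to these symbols, which gave 27 of 20380 probe sets with 1 gene and 10 of 12393 genes. All 10 were among the 7436 genes bright enough to be tested, by their mean over all arrays. Slc38a4 and Nnat met this filter only through the genotype in which they were high. RNA came from mouse embryonic fibroblasts made from 13.5-day embryos of intercrossed heterozygotes and used at passages 15 to 20. The cells were wild type or PKBa-/-, which lack the kinase PKB alpha encoded by Akt1. The 36 Affymetrix arrays comprised 4 replicates of each genotype at the time labels 0, 6, 24 and 48 (no unit is given), and only replicates 1 and 2 at time label 2. The series title speaks of DMEM, and a shared protocol also describes an adipogenic mixture, so which medium each array's cells received is not settled by the sample labels. The labels do not say how many embryos or lines stand behind a genotype, so genotype and line cannot be told apart.

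An imprinted gene is expressed mainly from the copy inherited from 1 parent, and for most of them the choice is set by DNA methylation laid down in the germ line. Many imprinted genes are active in the embryo and placenta, act on growth, and fall in level after birth. Slc38a4, Nnat, Mest, Plagl1, Ndn, Peg3, Sgce and Dlk1 are known as genes expressed from the paternal copy, whereas Meg3 and Rian are long noncoding RNAs expressed from the maternal copy next to Dlk1. Arrays such as these read the RNA of both copies together and do not say which copy was used.

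Promoter sequences are shown for Slc38a4, the member with the largest rise in PKBa-/- averaged over times, and for the 5 members whose difference between replicate sets depended on genotype, as RefSeq (GRCm38.p6) windows of 300 bases from 250 before to 50 after a start, read 5′ to 3′ on the gene's strand. Capitals mark each TGCCGC or its reverse complement GCGGCA, the core of the motif bound by the zinc-finger protein ZFP57, which protects methylation at imprinted control regions.
Slc38a4, chr15:97055907-97056206, minus strand: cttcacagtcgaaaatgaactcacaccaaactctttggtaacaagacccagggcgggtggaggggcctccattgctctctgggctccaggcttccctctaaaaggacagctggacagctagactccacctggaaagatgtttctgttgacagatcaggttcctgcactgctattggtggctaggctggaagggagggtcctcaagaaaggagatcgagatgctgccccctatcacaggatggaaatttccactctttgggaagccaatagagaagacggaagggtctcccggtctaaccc
Nnat, chr2:157559828-157560127, plus strand: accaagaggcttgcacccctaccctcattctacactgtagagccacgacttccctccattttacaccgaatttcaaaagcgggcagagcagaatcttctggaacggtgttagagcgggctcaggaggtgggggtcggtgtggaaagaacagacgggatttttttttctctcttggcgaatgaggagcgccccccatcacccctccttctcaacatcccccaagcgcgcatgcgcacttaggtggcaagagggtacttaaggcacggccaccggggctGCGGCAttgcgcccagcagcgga
Mest, chr6:30737800-30738099, plus strand: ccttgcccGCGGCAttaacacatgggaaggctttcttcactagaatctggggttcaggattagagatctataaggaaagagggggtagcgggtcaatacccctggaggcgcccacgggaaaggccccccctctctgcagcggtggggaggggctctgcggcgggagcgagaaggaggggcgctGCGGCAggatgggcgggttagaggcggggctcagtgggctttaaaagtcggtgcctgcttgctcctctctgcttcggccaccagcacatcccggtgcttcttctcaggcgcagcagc
Plagl1, chr10:13090582-13090881, plus strand: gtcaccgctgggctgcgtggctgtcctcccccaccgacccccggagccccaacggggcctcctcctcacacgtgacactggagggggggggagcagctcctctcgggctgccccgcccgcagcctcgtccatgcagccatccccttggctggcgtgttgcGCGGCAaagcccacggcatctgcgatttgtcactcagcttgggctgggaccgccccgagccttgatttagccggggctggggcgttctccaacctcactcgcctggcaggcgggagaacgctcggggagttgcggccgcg
Ndn, chr7:62348027-62348326, plus strand: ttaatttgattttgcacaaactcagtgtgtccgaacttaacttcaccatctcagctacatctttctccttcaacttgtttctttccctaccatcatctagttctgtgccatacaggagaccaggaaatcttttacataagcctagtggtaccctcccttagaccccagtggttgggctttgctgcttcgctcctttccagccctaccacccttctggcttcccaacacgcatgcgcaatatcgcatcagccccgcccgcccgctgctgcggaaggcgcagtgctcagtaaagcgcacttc
Meg3, chr12:109540746-109541045, plus strand: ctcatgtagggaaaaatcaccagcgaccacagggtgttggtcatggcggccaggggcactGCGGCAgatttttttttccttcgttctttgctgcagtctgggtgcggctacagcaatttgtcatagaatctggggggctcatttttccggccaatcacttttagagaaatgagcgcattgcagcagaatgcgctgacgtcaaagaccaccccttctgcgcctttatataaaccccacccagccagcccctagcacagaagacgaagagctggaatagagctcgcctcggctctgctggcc

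The motif stood in these windows of Nnat, Mest, Plagl1 and Meg3 and not in those of Slc38a4 and Ndn. RefSeq windows were found for 9 of the 10 members, 14 windows in all, and 5 windows of 4 genes held the motif, against 11.6% of all 32851 windows searched on both strands. 2 of the 5, both of Mest, overlap nearly in full. A further window of Mest and a further window of Meg3 held no motif, with 8 and 1 CG dinucleotides. The Mest window shown is window 2 of 3, whereas each other gene is shown by its window 1. The Mest window shown had 17 CG dinucleotides, that of Plagl1 26 and that of Slc38a4 5, beside a median of 7 over all windows. These are matches of letters only; no binding or methylation was measured. The hairpins of several microRNAs lie within the spans of the noncoding members: Mir770 in Meg3 and Mir1188, Mir341 and Mir370 in Rian; Mir335 lies within Mest.

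The arrays of a group fell into sets: replicates 1 and 2 correlated at 0.982 to 0.997 with each other, as did replicates 3 and 4, and at 0.942 to 0.989 across sets. The labels do not say what a set is or whether replicates were separate cultures, so set averages were taken as the unit, and p-values measure only the spread between sets or times of these samples. Array medians ran from 134 to 145. Akt1 signals ran from 843 to 1395 in wild type and from 43.8 to 103 in PKBa-/- arrays. The 8 fibroblast markers were read in both genotypes, with summed signals of 42867 to 58777 in wild type and 59067 to 68521 in PKBa-/-. All but Fn1 had the higher mean in PKBa-/-, among them Thy1 (1012 in wild type and 4137 in PKBa-/-). The 4 mesothelial markers summed to 4417 to 7368 in wild type and 178 to 248 in PKBa-/-, and the 4 endothelial markers to 521 to 1686 and 289 to 489.8. Each of the 4 mesothelial markers had the lower mean in PKBa-/-, where Wt1 (42.0), Upk3b (60.9) and Msln (42.2) were near the low end of the arrays; among the endothelial markers Pecam1, Cdh5 and Tek were at that level in both genotypes. The part of these cell types in the genotype differences below was not tested. In bulk RNA, fewer cells of a type and less RNA per cell cannot be told apart. The 4 neuronal markers summed to 121 to 215 in wild type and 144 to 222 in PKBa-/-.

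The first comparison set the genotypes against each other, averaged over times 0, 6, 24 and 48. Slc38a4 and Mest were higher in PKBa-/- cells and Nnat was lower, and the other 7 members did not pass. Differences are in log2(signal + 32) ± SE, with limma's p adjusted over all 7436 genes and a threshold of 0.05, which a gene is said to have passed. 3 of 10 members passed, where 17.7% of all genes did. Of these, 2 were higher, where 8.2% of all genes were, and 1 was lower, where 9.47% were. The count includes Slc38a4 and Nnat, which met the signal filter only through the genotype in which they were high. The median difference was 0.43 over the members and 0.03 over all genes.

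Slc38a4 encodes an amino acid transporter of the plasma membrane. Its signal ran from 24.8 to 45.6 (median 35.1) over the 18 wild type arrays and from 283 to 899.6 (median 441) over the 18 PKBa-/- arrays, so the genotypes did not overlap. The wild type signals lay near the low end of the arrays, where values carry little order, so the ratio of mean signals, 14.3, is no exact fold. The difference was 2.92 ± 0.14, adjusted p = 1.7e-06, and it was 3.04 within replicates 1 and 2 and 2.80 within replicates 3 and 4. A dimmer probe set of the gene gave 1.19. Of the 4 times with both sets, all of which passed, the value was highest at time 0 (3.67 ± 0.15, adjusted p = 1.2e-08) and lowest at time 24 (2.57 ± 0.15, adjusted p = 1.4e-07). Time 2 has replicates 1 and 2 only and so 1 set value for each genotype, and its error is taken from the spread of the other groups. There Slc38a4 gave 3.68 ± 0.21, adjusted p = 7.2e-07, beside 3.73 in the same replicates at time 0.

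Nnat encodes neuronatin, a small membrane protein of the endoplasmic reticulum. Its signal was the reverse: from 239 to 918 (median 567) in wild type and from 23.3 to 36.9 (median 31.4) in PKBa-/- arrays, again with no overlap. The ratio of mean signals, wild type over PKBa-/-, was 18.2. The difference was -3.11 ± 0.27, adjusted p = 9.4e-05, or -3.66 and -2.57 within the sets. The PKBa-/- signals lay near the low end of the arrays, so this ratio is no exact fold either. Nnat also passed at the 4 times with both sets, from -2.71 ± 0.43, adjusted p = 0.00068 at time 48 to -3.53 ± 0.43, adjusted p = 0.00012 at time 0. At time 2, with 1 set value for each genotype, it gave -3.85 ± 0.61, adjusted p = 0.0019, beside -3.99 in the same replicates at time 0.

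Mest encodes an enzyme-like protein of the alpha/beta hydrolase fold, abundant in embryonic mesoderm. Its signal ran from 806 to 1755 (median 1279.7) in wild type replicates 1 and 2 and from 89.0 to 231 (median 154) in wild type replicates 3 and 4. In PKBa-/- arrays it ran from 1217 to 5909 (median 3398). With all times pooled, the PKBa-/- arrays overlapped with wild type replicates 1 and 2 and lay wholly above replicates 3 and 4. At each single time, all PKBa-/- arrays lay above all wild type arrays. At time 6, for example, the lowest PKBa-/- array read 1217 and the highest wild type array 933. The difference was 2.69 ± 0.66, adjusted p = 0.024, made of 1.47 within replicates 1 and 2 and 3.91 within replicates 3 and 4. The call was lost when genes of low signal were not filtered out (adjusted p = 0.15). At single times Mest passed at time 48 alone (3.64 ± 1.10, adjusted p = 0.031, or 0.061 with no filter).

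The other 7 members did not pass this comparison. Plagl1, a zinc-finger transcription factor that restrains growth, gave 1.26 ± 0.56, adjusted p = 0.17, with 0.46 and 2.06 within the sets. Ndn encodes necdin, a growth-restraining protein of the MAGE family, and gave -1.10 ± 0.50, adjusted p = 0.18, with -1.67 and -0.53. For Meg3 the value was 0.78 ± 0.29, adjusted p = 0.1, with 0.39 and 1.18 within sets, and for Rian it was 0.64 ± 0.31, adjusted p = 0.2, with 0.37 and 0.91. Dlk1, a membrane protein with EGF-like repeats known for holding back adipocyte differentiation, gave -0.19 ± 0.20, adjusted p = 0.59. Sgce, the epsilon subunit of the sarcoglycan complex, gave 0.21 ± 0.14, adjusted p = 0.36. Peg3, a large zinc-finger protein, gave -0.01 ± 0.12, adjusted p = 0.97, with 0.09 within replicates 1 and 2 and -0.11 within replicates 3 and 4. For Peg3 the set values had opposite signs, and for the other 6, as for Mest, the value in 1 set was more than 1.5 times that in the other.

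**Figure D1:**
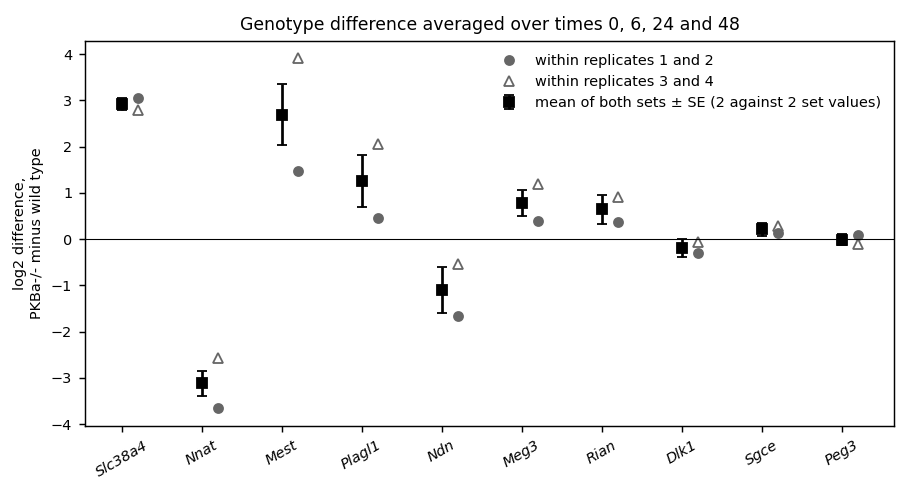
Difference between genotypes (PKBa-/- minus wild type, log2 of signal + 32) for each member, averaged over times 0, 6, 24 and 48: squares with bars are the mean of both replicate sets ± SE (2 against 2 set values), circles the value within replicates 1 and 2 and triangles that within replicates 3 and 4. Slc38a4 (2.92) and Nnat (-3.11) lie farthest from 0. The set values of Slc38a4 stand at 3.0 and 2.8, those of Nnat at -3.7 and -2.6 and those of Mest at 1.47 and 3.91.

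At single times, 3 members passed at time 0 (14.8% of all genes), 2 at time 2 (5.78%, on 1 set value for each genotype), 3 at time 6 (16.5%), 2 at time 24 (20.4%) and 4 at time 48 (23.2%). Each of these counts includes Slc38a4 and Nnat, which met the signal filter only through the genotype in which they were high. Beside Slc38a4, Nnat and Mest the only other member among those that passed was Peg3, which changed sign over the course. Peg3 was lower in PKBa-/- at time 0 (-0.61 ± 0.16, adjusted p = 0.02) and time 6 (-0.61 ± 0.16, adjusted p = 0.02) and higher at time 48 (0.70 ± 0.16, adjusted p = 0.0066).

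The next comparison set the replicate sets of a genotype against each other, as replicates 3 and 4 minus 1 and 2 over times 0, 6, 24 and 48. In wild type, 8 of 10 members were lower in replicates 3 and 4 and none was higher, and the drop was deepest for Mest, Plagl1 and Ndn. Of all genes 30.2% passed and 17.8% were lower. The median difference was -1.04 over the members and -0.01 over all genes. The members were chosen with earlier results of these data known, so these figures are no test of imprinted genes as a class. The repeats of a set are its 4 times, so the p-values say that the sets differed alike at these times and not how far other cultures would differ. Of the 8 fibroblast markers, 5 had a lower mean and 3 a higher mean in wild type replicates 3 and 4. Their summed signals, carried by the brightest markers, ran from 44653 to 58777 in replicates 1 and 2 and from 42867 to 57469.7 in replicates 3 and 4. The sums hide Thy1, whose wild type means were 1393 in replicates 1 and 2 and 330 in replicates 3 and 4. Of the 4 mesothelial markers 3 were higher, with sums of 4417 to 5897 and 5462 to 7368. The 6 measured adipocyte markers all had a higher mean, with sums of 304 to 425 and 394 to 503, but only Cebpa was bright enough to test. Fabp4 moved most against its level, with means of 39.2 and 97.8. Adipoq (20.1 and 20.4) and Lep (32.5 and 33.6) hardly moved, so the count is no sign of an adipocyte shift. The part of these markers in the set differences was not tested.

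Mest at time 0 read 1755, 1702, 230.4 and 231 in wild type replicates 1 to 4, and at time 48 it read 1279, 1123, 186 and 89.0. Both arrays of replicates 3 and 4 lay below both of replicates 1 and 2 at each time. The difference was -2.69 ± 0.09, adjusted p = 1e-09. Plagl1 read 1105, 1127, 259.8 and 278 at time 0 and 2637, 2658, 289 and 302 at time 48, again with no overlap of the sets, and differed by -2.21 ± 0.17, adjusted p = 6.7e-07. Its other, dimmer probe set gave -0.48, so the size of the Plagl1 difference depends on the probe set. Ndn read 737, 694, 209 and 222 at time 0 and 706, 770.2, 112 and 107 at time 48 and differed by -1.88 ± 0.13, adjusted p = 1.7e-07. The other 7 Ndn probe sets gave -1.76 to -0.03, and the 3 nearest 0 were dim. The brightest probe sets of Plagl1 and Ndn carry the suffix _x_at, and such probe sets can bind related sequences as well.

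The genes of the Dlk1 and Meg3 region were all lower in wild type replicates 3 and 4. Meg3 read 4699, 4996, 2306 and 2703 at time 0 in wild type replicates 1 to 4, and differed between sets by -1.06 ± 0.08, adjusted p = 9.1e-07. 4 further Meg3 probe sets gave -0.98, -0.92, -0.81 and, for the dimmest, -0.13. Rian read 593, 351, 277 and 187 at time 0 and 465, 422, 107 and 134 at time 48, and differed by -1.07 ± 0.13, adjusted p = 5.2e-05. Dlk1, expressed from the opposite parental copy, read 363, 353, 218 and 259 at time 0 and differed by -0.59 ± 0.07, adjusted p = 5.5e-05. At time 0 the sets did not overlap for any of these 3 genes, which can arise by chance with so few arrays in a set. The share of all genes without such overlap was not counted, so this is no trait of the region. Nnat differed by -1.01 ± 0.09, adjusted p = 1.6e-06 and Sgce by -0.29 ± 0.09, adjusted p = 0.021. Peg3 (0.04 ± 0.09, adjusted p = 0.77) did not pass, although a dimmer Peg3 probe set gave 0.44. Slc38a4 gave -0.03 ± 0.07, adjusted p = 0.79, from wild type signals near the low end of the arrays, where a difference between sets may not show.

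In PKBa-/- cells the set differences of the members were smaller in size for each of the 8 genes that were lower in wild type. For Nnat, whose PKBa-/- signals lay near the low end of the arrays, a drop may not show. 6 of 10 members were lower in replicates 3 and 4, where 25.4% of all genes passed and 19.3% were lower. They were Ndn (-0.74 ± 0.13, adjusted p = 0.0049), Plagl1 (-0.60 ± 0.17, adjusted p = 0.025), Rian (-0.53 ± 0.13, adjusted p = 0.017), Dlk1 (-0.35 ± 0.07, adjusted p = 0.011), Slc38a4 (-0.27 ± 0.07, adjusted p = 0.015) and Meg3 (-0.27 ± 0.08, adjusted p = 0.037). The dimmer Plagl1 probe set gave 0.09 ± 0.11, and the other Ndn probe sets ran from -0.75 to 0.06. The median was -0.27 over the members and -0.10 over all genes. These small differences depend on the scaling: of all genes that passed, 23.9% were higher in replicates 3 and 4 as deposited and 49.9% after quantile normalization, where 3 members passed in place of 6. With all probe sets of a gene averaged, 2 passed. Meg3 was lost without PKBa-/- time 24 replicate 2 (adjusted p = 0.062) or time 48 replicate 2 (0.052), and with no filter Meg3 and Plagl1 were lost (0.053 each).

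The difference between the genotypes in this set difference was itself tested. 5 members passed, all with a smaller drop or none in PKBa-/-, where 16.1% of all genes passed and 4.8% had that sign. They were Mest (2.45 ± 0.13, adjusted p = 1.3e-07), Plagl1 (1.60 ± 0.24, adjusted p = 0.00075), Ndn (1.15 ± 0.18, adjusted p = 0.00096), Nnat (1.09 ± 0.12, adjusted p = 6.9e-05) and Meg3 (0.80 ± 0.12, adjusted p = 0.00079). Of all genes that passed, 29.8% had that sign as deposited and 47.8% after quantile normalization. The dimmer Plagl1 probe set gave 0.57, and the other Ndn probe sets ran from 0.08 to 1.28. Nnat was near the low end of the arrays in both PKBa-/- sets, where a drop between sets may not show, so its value may only restate the wild type drop. Mest in PKBa-/- read 3251, 3311, 2772 and 2455 at time 0, against 1755, 1702, 230.4 and 231 in wild type.

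**Figure D2:**
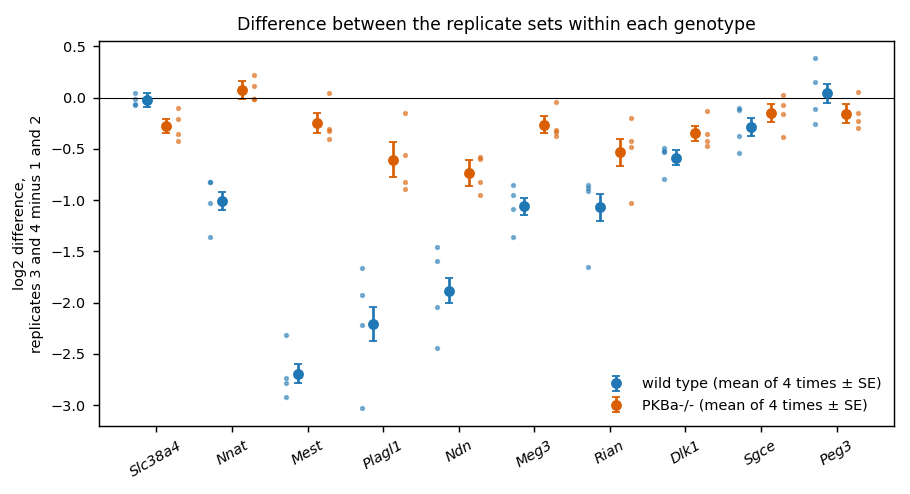
Difference between the replicate sets (replicates 3 and 4 minus 1 and 2, log2 of signal + 32) of each member in wild type and PKBa-/- cells: large points with bars are the mean over times 0, 6, 24 and 48 ± SE, small points the 4 times. In wild type the means of Mest (-2.69), Plagl1 (-2.21) and Ndn (-1.88) lie lowest; those of Slc38a4 and Peg3 lie near 0.

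Time was compared within each genotype, first as an F test over times 6, 24 and 48 against time 0. In PKBa-/- cells Slc38a4, Sgce and Peg3 changed, and in wild type Peg3 changed. That is 3 of 10 members in PKBa-/-, where 22.8% of all genes passed, and 1 in wild type, where 15.6% passed. The difference between genotypes in the change passed for Peg3 (adjusted p = 0.0095), where 1.64% of all genes passed, and not for Slc38a4 (adjusted p = 0.051). In wild type, arrays of 1 replicate number deviated together across times, so a term for the replicate set, which takes the set differences above out of the spread, was also fitted. With that term 8 of 10 members changed over time in wild type in place of 1, and 47.2% of all genes did. In PKBa-/- cells the term also gave 8 of 10 in place of 3, where 51.3% of all genes passed. There the correlations between same-numbered arrays ran down to 0.0329, so the pairing was not taken to hold. The 3 called in PKBa-/- therefore depend on leaving the term out.

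Peg3 in PKBa-/- cells read 2049.9, 2207, 1997 and 1637 at time 0, 1013, 1086, 1079 and 1102 at time 6, 3582, 3591, 2977 and 2847 at time 24 and 3699, 3763, 3078 and 3643 at time 48. In wild type it read 2682, 2579, 3440.5 and 3442 at time 0, 1587, 1533, 1653 and 1822 at time 6, 2537, 2542, 2038 and 2197 at time 24 and 2314, 2179.9, 2021 and 2140.0 at time 48. All 4 arrays at time 6 lay below all 4 at time 0 in both genotypes, and in PKBa-/- all arrays at times 24 and 48 lay above those at time 0. Relative to time 0 Peg3 fell at time 6 in PKBa-/- (-0.86 ± 0.16, adjusted p = 0.0032) and in wild type (-0.86 ± 0.16, adjusted p = 0.005). In PKBa-/- it rose at time 24 (0.71 ± 0.16, adjusted p = 0.019) and time 48 (0.84 ± 0.16, adjusted p = 0.0064), whereas wild type gave -0.37 ± 0.16, adjusted p = 0.21 and -0.47 ± 0.16, adjusted p = 0.1. With the term for the replicate set, wild type Peg3 fell at time 48 (-0.47 ± 0.13, adjusted p = 0.02) and at time 2 (-0.58 ± 0.17, adjusted p = 0.04), and gave an adjusted p of 0.061 at time 24. The change to time 24 exceeded that of wild type by 1.08 ± 0.22, adjusted p = 0.048, and the change to time 48 by 1.31 ± 0.22, adjusted p = 0.012. The first of these lies at the threshold: it was lost without any 1 of 19 of the 36 arrays (adjusted p up to 0.067), with an offset of 8 (0.057) and with no filter (0.066).

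Slc38a4 in PKBa-/- cells read 847, 899.6, 762 and 739.9 at time 0, 810.3 and 869.7 at time 2, 482, 512, 367 and 395 at time 6, 389, 435, 314 and 283 at time 24 and 435, 424, 353 and 446 at time 48. The arrays at times 6, 24 and 48 all lay below those at times 0 and 2. The changes from time 0 were -0.85 ± 0.15, adjusted p = 0.0028 at time 6, -1.14 ± 0.15, adjusted p = 0.0011 at time 24 and -0.92 ± 0.15, adjusted p = 0.0027 at time 48. In wild type, where the signal was low throughout, the estimates were 0.08, -0.05 and 0.04.

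Sgce in PKBa-/- cells read 1032, 1151, 1092 and 1129.7 at time 0 and 548, 595, 521 and 493 at time 6, with no overlap, and 1148, 1162, 876 and 875 at time 24. It fell at time 6 in PKBa-/- (-0.99 ± 0.18, adjusted p = 0.0034) and in wild type (-0.72 ± 0.18, adjusted p = 0.025), and did not pass at times 24 and 48 in either genotype without the term for the replicate set. With that term wild type Sgce fell at time 48 (-0.41 ± 0.12, adjusted p = 0.025). The wild type call at time 6 was lost without replicate 1 of that group (adjusted p = 0.056).

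**Figure D3:**
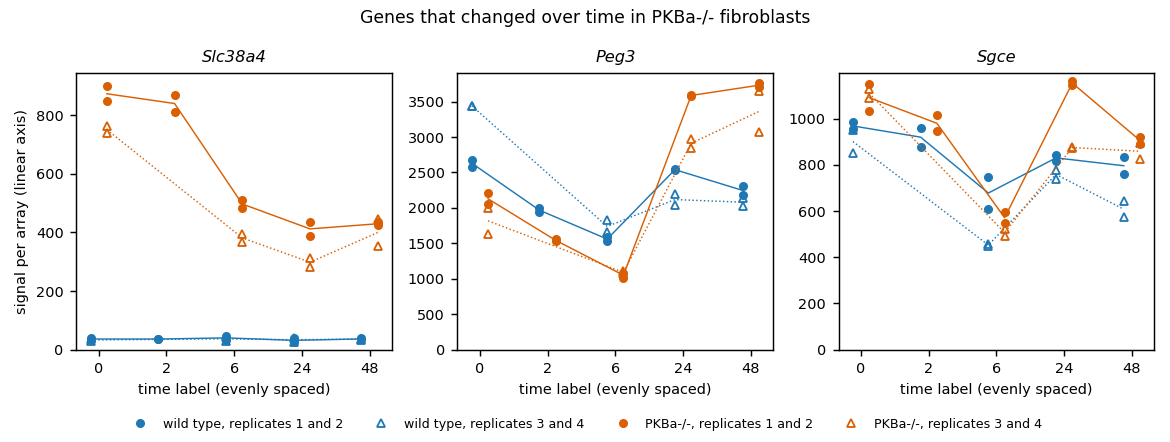
Signal on each array (linear axis from 0) of Slc38a4, Peg3 and Sgce by time label, spaced evenly: filled circles are replicates 1 and 2, open triangles replicates 3 and 4, lines join set means, blue is wild type and orange PKBa-/-. Peg3 and Sgce are low at time 6 in both genotypes, and PKBa-/- Slc38a4 lies between 739.9 and 899.6 at time 0 and between 283 and 435 at time 24.

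Counts of members at single times were 2 in wild type at time 6 (all genes 11.9%), and 3, 2 and 2 in PKBa-/- at times 6, 24 and 48 (all genes 18.4%, 6.15% and 7.45%). In wild type limma called 0 members at times 2, 24 and 48 (all genes 2.73%, 5.66% and 6.01%), with 1, 1 and 3 at an unadjusted p under 0.05. With the term for the replicate set the wild type counts were 1 at time 2, 4 at time 6, 5 at time 24 and 6 at time 48 (all genes 11.3%, 32.2%, 22.1% and 23.5%). Without that term the test at time 2 sets replicates 1 and 2 against all 4 replicates at time 0, and for wild type Mest it gave 1.24, against -0.11 with the term. In PKBa-/- limma called 0 at time 2 (all genes 3.39%), with 0 at an unadjusted p under 0.05. The difference between genotypes in the change passed for 0 members at time 6 (all genes 0.551%; 1 member at an unadjusted p under 0.05), for 2 at time 24 (all genes 0.726%) and for 1 at time 48 (all genes 1.14%). The 2 at time 24 were Peg3 and Slc38a4 (-1.09 ± 0.21, adjusted p = 0.04), and the 1 at time 48 was Peg3. Wild type Slc38a4 lay near the low end of the arrays, where a fall may not show, so its value may only restate the PKBa-/- change. For Slc38a4 the call was lost when replicate 1 (adjusted p = 0.073) or replicate 4 (0.063) of wild type at time 24 was left out, or from PKBa-/- replicate 1 at time 24 (0.061) or replicate 4 at time 48 (0.055), with an offset of 8 (0.056) and with no filter (0.053).

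Of the 10 members in wild type, the 2 that did not pass over time with the term for the replicate set were Slc38a4 (adjusted p = 0.64) and Ndn (adjusted p = 0.2). With the term, Dlk1 fell by time 24 (-0.54 ± 0.10, adjusted p = 0.0022) and further by time 48 (-0.96 ± 0.10, adjusted p = 2.4e-05). Its wild type signals were 363, 353, 218 and 259 at time 0 and 162, 173, 87.5 and 129 at time 48, with no overlap. Meg3 (-0.83 ± 0.12, adjusted p = 0.00024) and Rian (-0.99 ± 0.19, adjusted p = 0.0021) fell at time 24, and Meg3 also at time 48 (-0.49 ± 0.12, adjusted p = 0.0086). Nnat and Mest fell at times 6, 24 and 48, Nnat furthest at time 48 (-0.76 ± 0.12, adjusted p = 0.00051) and Mest furthest at time 6 (-0.76 ± 0.13, adjusted p = 8e-04). Plagl1 passed over all times (adjusted p = 0.026) but at no single time.

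In PKBa-/- cells Mest and Plagl1 had wide ranges over time but did not pass without a term for the replicate set. Mest read 3251, 3311, 2772 and 2455 at time 0, 1666, 1612, 1217 and 1248 at time 6 and 5198, 5735, 5384 and 5909 at time 48 (F test, adjusted p = 0.56). Plagl1 read 1319.9, 1165, 733 and 586 at time 0, 1095, 989, 568 and 582 at time 6 and 4136, 3945, 3407 and 3873 at time 48 (adjusted p = 0.27). For both genes the 4 arrays at time 48 lay above the 4 at time 0, and for Mest the arrays at time 0 lay above those at time 6. This test shares 1 spread with wild type, where the sets of these genes differed as given above. The pairing behind the term was not taken to hold in PKBa-/-, on account of 1 low correlation of 24. With the term, Mest (adjusted p = 6.9e-07) and Plagl1 (1.7e-05) passed over time in PKBa-/-. So did 8 of 10 members and 51.3% of all genes. Mest then fell at time 6 (-1.025 ± 0.13) and rose at time 48 (0.92 ± 0.13), and Plagl1 rose at time 48 (2.05 ± 0.24). With the term Dlk1, which fell in wild type, rose at time 48 in PKBa-/- (0.52 ± 0.10, adjusted p = 0.0023). Without the term neither change passed in limma (adjusted p = 0.081 in wild type and 0.36 in PKBa-/-). Nor did the difference between the 2 changes (1.48 ± 0.42, adjusted p = 0.15), so a contrast between the genotypes was not shown by that fit.

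**Figure D4:**
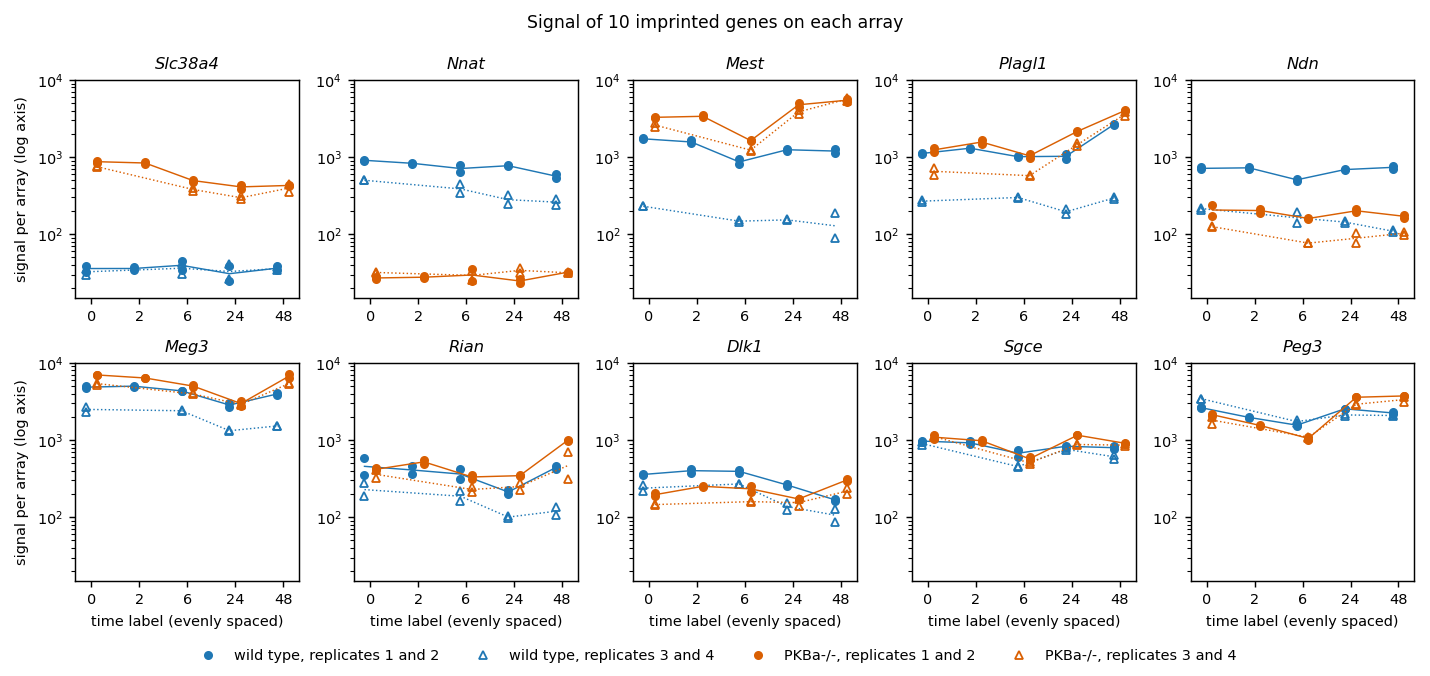
Signal on each of the 36 arrays (log axis) of the 10 members by time label, spaced evenly: filled circles are replicates 1 and 2, open triangles replicates 3 and 4, lines join set means, blue is wild type and orange PKBa-/-. Slc38a4 and Nnat separate by genotype, while wild type replicates 3 and 4 of Mest (89.0 to 231) stand apart from the other sets.

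Of the other imprinted genes, used as a reference list, 49 were listed, 36 were measured and 14 were bright enough to test. In the genotype comparison 4 of the 14 passed, where 17.7% of all genes did. Copg2 (0.56 ± 0.12, adjusted p = 0.013) and Mcts2 (0.62 ± 0.12, adjusted p = 0.009) were higher in PKBa-/-. H13 (-0.62 ± 0.13, adjusted p = 0.012) and the matrix proteoglycan gene Dcn (-3.31 ± 0.24, adjusted p = 2.9e-05) were lower. Between the wild type sets 9 of the 14 passed, 3 higher and 6 lower, where 30.2% of all genes passed. Their median was -0.13, beside -1.04 for the members and -0.01 for all genes. Whether the lists differ was not tested.

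Of 7 neighbouring genes bright enough to test, 4 passed between genotypes, 2 in each direction, where 17.7% of all genes passed. Copg2 and Cep41, beside Mest, were higher in PKBa-/- (Cep41 0.42 ± 0.12, adjusted p = 0.046). Blcap, the host of Nnat, gave 0.30 ± 0.22, adjusted p = 0.4 and was not among those that passed. Of the transporter genes near Slc38a4, Slc38a1 was lower (-1.15 ± 0.14, adjusted p = 0.00062) and Slc38a2 gave -0.0029 ± 0.13, adjusted p = 0.99. Sf3b5, near Plagl1, was lower (-0.58 ± 0.13, adjusted p = 0.016), and Casd1, near Sgce, gave 0.04 ± 0.14, adjusted p = 0.89. Peg10, which shares its promoter region with Sgce, was dim, at 30.7 ± 3.43 in wild type and 54.6 ± 11.6 in PKBa-/- (SD, n = 18). Phactr2, Zim1, Usp29, Magel2 and Mkrn3 were also too dim to test, with signals of 13.7 to 111.

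The genes whose log2 values followed each member most closely over the 18 set averages were found by Pearson's r, as a description; the values share arrays and the difference between genotypes. For Slc38a4 they were Cyba (0.991), Mmp23 (0.990) and Abi3bp (0.985), and for Nnat they were Pbxip1 (0.984), Clu (0.981) and Akt1 (0.979). Mest was followed by B3galnt1 (0.975), Tgfbr2 (0.964) and Smoc2 (0.953), and Plagl1 by Itgbl1 (0.954), Smoc2 (0.946) and P3h3 (0.936). Rian was followed by Fam43a (0.914), Meg3 (0.897) and Itgbl1 (0.895), so Meg3 was the only member among another member's 3 closest genes. The closest gene was Uggt2 for Meg3 (0.911), Dcps for Sgce (0.958), Pdgfra for Peg3 (0.898), S100a6 for Dlk1 (0.877) and Pfn2 for Ndn (0.945).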

How the data were processed

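The authors deposited 1 linear intensity for each probe set on each array; their summary and scaling steps are not stated in the labels used here. Per the labels' protocols, biotinylated cRNA was made from total RNA. Genes were named from GEO's platform annotation: 20380 of 22690 probe sets had 1 gene and were used, 691 had several, 1555 none and 64 were controls. Each gene was read on its brightest probe set as log2(signal + 32), the log2 scale being taken from the deposited linear values, with no further normalization. The 40% of 12393 genes with the lowest mean were not tested, which left 7436 genes above a signal of about 123.

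Limma 3.58.1 in R 4.3.3 (lmFit, eBayes, two-sided, Benjamini-Hochberg over all tested genes) was fitted to averages of each replicate set: 4 values for the genotype difference (2 residual and 6.64 prior degrees of freedom), 18 for times (8 and 4.24) and 16 for sets (6 and 7.71). Same-numbered arrays correlated in their deviations at 0.481 to 0.719 across wild type times, at 0.0329 to 0.593 in PKBa-/- and at -0.116 to 0.324 across genotypes. Of the 24 correlations across times in PKBa-/-, 1 was too close to 0 for the pairing rule. Arrays there still matched their own number best in 26 of 48 cases, against 25 in wild type. The pairing was taken to hold in wild type, where the result with a term for the replicate set is given where it changes a call. Alternatives were other offsets, filters, scalings and probe set rules, an intensity trend, single arrays, blocks, each set alone and each array left out. The named genes were the 10 members, the listed imprinted genes that passed between genotypes, every measured neighbour, the 3 genes most like each member (part of which are given) and Akt1. Members and lists were chosen with earlier results of these data known. Precision is limited by the number of arrays.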

Additional observations from a re-analysis of the deposited data

Results flagged for a closer look

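Several results differed between the genotypes by a test of the difference itself. The change of Peg3 over times 6, 24 and 48 differed between PKBa-/- and wild type (limma, adjusted p = 0.0095), by 1.08 at time 24 and 1.31 at time 48 on the log2 scale. The change of Slc38a4 to time 24 differed by -1.09, from a wild type signal that was low at every time. A fall there may not show, so the value may only restate the PKBa-/- change. On the brightest probe sets the difference between replicate sets also depended on genotype. It was more negative in wild type than in PKBa-/- by 2.45 for Mest, 1.6 for Plagl1, 1.14 for Ndn, 1.09 for Nnat and 0.795 for Meg3. Nnat lay near the low end of the arrays in both PKBa-/- sets, so a drop there may not show and its value may only restate the wild type drop. What separates the sets is not stated in the labels, and no cause was tested.

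In 2 groups of 4 arrays, 1 array stood apart by Dixon's ratio, its gap to the nearest array divided by the group's range, both on the log2 scale. For Dlk1 in PKBa-/- at time 24 the ratio was 0.984, with signals of 173, 172, 173 and 138. For Peg3 in PKBa-/- at time 48 it was 0.839, with signals of 3699, 3763, 3078 and 3643. Chance flags about 5% of groups, and 80 groups (10 genes in 8 groups of 4 arrays) were looked at.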

How the results depend on the processing

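The counts of members that passed were recomputed under 13 other settings and with each of the 36 arrays left out in turn. Leaving out 1 array gave 3 for the genotype difference, 1 to 2 for the change over time in wild type, 3 for that in PKBa-/-, 1 to 2 for the difference between genotypes in the change, 8 and 5 to 7 for the set differences in wild type and PKBa-/-, and 5 to 6 for the difference between genotypes in the set difference. The unit of replication moved the counts most. The share of all tested genes that passed under a setting stands in brackets. For the genotype difference 8 passed with every array as a replicate (65%), 8 with a random effect for the pair of arrays (50.9%), 7 with a replicate block for the set shared by the genotypes (28.9%; 1 residual degree of freedom), 10 in replicates 1 and 2 alone (70.3%) and 8 in replicates 3 and 4 alone (70.7%). In replicates 1 and 2 alone Peg3 was higher in PKBa-/-, by 0.0892 (adjusted p = 0.032), against a value that did not pass and was below 0 with both sets.

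For the change over time in wild type these settings gave 4 (54%), 3 (25.4%), 4 (31.5%), 9 (77.4%) and 9 (55.9%). For that in PKBa-/- they gave 7 (57.1%), 5 (30.8%), 7 (37.6%), 9 (75%) and 9 (55.6%), and for the difference between genotypes in the change 3 (21.3%), 3 (6.63%), 3 (5.57%), 9 (51%) and 9 (29.9%). A replicate block for the set within genotype gave 8 in each of these 3 comparisons (47.2%, 51.3% and 15.8%); in PKBa-/- Ndn and Nnat were the 2 that did not pass. Replicate numbers did not meet the rule for pairing in PKBa-/- or across genotypes, and arrays matched their own number best in 25 and 26 of 48 cases in wild type and PKBa-/-. With every array as a replicate 8 passed for the difference between genotypes in the set difference (37%).

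With the 60% dimmest genes left out, 6 members were tested, and 1 passed for the genotype difference (17.9%), 5 and 3 for the set differences in wild type (34.9%) and PKBa-/- (28.1%), and 3 for the difference between genotypes in the set difference (20.4%). The difference between genotypes in the change gave 2 with an offset of 100 (1.71%), quantile normalization (2.51%) or an intensity trend (1.71%). The set difference in PKBa-/- gave 3 with quantile normalization (11.4%) and 2 with the mean of all probe sets (18.7%), where 9 members were tested. Quantile normalization moved the share of higher calls among all genes from 35.4% to 47.4% and from 35.3% to 46.8% at times 6 and 48 in wild type, and from 63.5% to 52.1% at time 2 in PKBa-/-. Where a count moved, the cause was not tested beyond the number of genes or samples a setting leaves. Low signals limit Nnat in PKBa-/- and Slc38a4 in wild type.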
